A study of Mus musculus and Rattus norvegicus with 6 samples.

Results

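Semaphorins are guidance ligands that cells secrete or hold on their surface, plexins are the receptors that carry their signal into the cell, and neuropilins are co-receptors that hold the secreted ligands next to a plexin. The set was chosen with earlier results of these data known, and its genes were then taken from the count table by symbol. Every class 3 to 7 semaphorin, every plexin, Nrp1, Nrp2, Plxdc1 and Plxdc2 was included, which gave 33 genes of 55573 in the table. They comprise 7 secreted class 3 semaphorins, 12 transmembrane semaphorins of classes 4, 5 and 6, the lipid-anchored Sema7a, 9 plexins, 2 neuropilins and the 2 plexin domain containing proteins. Plxdc1 and Plxdc2 carry a plexin-like domain and are not plexins.

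The bulk RNA-seq holds 4 libraries of mouse smooth muscle cells (SMCs), 2 treated with a control siRNA (siCo) and 2 with siRNAs against both YAP and TAZ (siYAP/TAZ). YAP, encoded by Yap1, and TAZ, encoded by Wwtr1, are transcriptional co-activators that bind DNA through TEAD factors. The labels name the cells MOVAS, a mouse aortic smooth muscle line, whereas the legends of the study name primary penile SMCs, and its methods shorten MOVAS to SMCs. The study lists 2 siRNA mixes without saying which of them was sequenced, and a legend for a qRT-PCR check of the sequenced genes gives 2 biologically independent samples. Whether the sequenced replicates themselves were separate cultures is not stated there, so the p-values measure only how far these libraries differ, and that spread may be technical.

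When a semaphorin binds, the plexin's intracellular domain acts on small GTPases, and the cell loosens its adhesions and pulls back its edge. In vessels this system is best known for steering endothelial sprouts, as when Sema3e binds plexin D1 without a neuropilin, and for the neuropilins' second role of binding VEGF. In the neural crest, class 3 semaphorins guide the cells that build the wall of the cardiac outflow tract.

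Total counts were 17192309 to 18751368 per library. Levels are given as FPKM, the count scaled for the length of the exons and the size of the library, and changes as the edgeR log2 fold change of siYAP/TAZ over siCo with its standard error (SE). Yap1 had a level of 22.7 FPKM ± 1.16 (SD, n = 2) in siCo and 1.95 FPKM ± 0.111 (SD, n = 2) in siYAP/TAZ, and Wwtr1 had 57.8 FPKM ± 1.86 (SD, n = 2) and 17.2 FPKM ± 0.604 (SD, n = 2). The summed level of 8 smooth muscle markers was 207 to 211 FPKM in siCo and 102 to 107 FPKM in siYAP/TAZ, with 5 of them called lower and 1 higher, and the defining marker Myh11 had only 1.29 FPKM in siCo. The summed level of 8 endothelial markers was 97.3 to 97.4 FPKM in siCo and 108 to 111 FPKM in siYAP/TAZ, with 5 called higher and 2 lower, and Cdh5 alone stood at 42.2 FPKM in siCo. Of 6 macrophage markers, Cd68 rose by 0.63 on the log2 scale (8.12 to 12.3 FPKM), Csf1r was under 1 FPKM, Ptprc had at most 2 counts in a library, and Adgre1, C1qa and Tyrobp had none. Summed levels were 249.9 to 306 FPKM in siCo and 370.2 to 394 FPKM in siYAP/TAZ for 4 fibroblast markers, all 4 called higher, and 33.2 to 38.6 FPKM and 67.5 to 69.4 FPKM for 5 pericyte markers, with 3 called higher. Of 4 epithelial markers 2 were called higher (summed 5.28 to 6.77 FPKM and 14.5 to 15.3 FPKM), and of 7 Schwann cell and neuron markers 3 were higher and 1 lower (8.84 to 9.25 FPKM and 7.16 to 7.57 FPKM). The part of these shifts in the results was not tested. In bulk RNA, fewer cells of a type and less RNA per cell cannot be told apart.

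Of the 33 genes, 31 had enough counts to be tested, and siYAP/TAZ cells had more RNA of 15 and less of 5 of them. Among the 15 that rose, the ligands were Sema3a, Sema3b, Sema3f, Sema4b, Sema4c, Sema6a, Sema6b, Sema6d and Sema7a. The others were the receptors Plxna1, Plxna4, Plxnb2 and Plxnd1, the co-receptor Nrp2, and Plxdc1. The 5 that fell were the ligands Sema3c, Sema3d and Sema3e, the receptor Plxnb1 and the co-receptor Nrp1. A further 11 did not pass the test.

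These counts have to be read against a broad response, since 55.4% of the 15479 genes tested passed an adjusted p of 0.05 in edgeR's quasi-likelihood test with Benjamini-Hochberg adjustment. Of all genes tested, 27.6% were called higher and 27.7% lower. The share of members called was 64.5%, close to that background, while 75% of the called members were higher against 49.9% of all called genes. The median log2 fold change was 0.46 over the 31 tested members and -0.00033 over all genes tested, and the median absolute log2 fold change was 0.56 against 0.33. A change of at least 2-fold was reached by 10.3% of all genes tested (7.14% higher and 3.15% lower) and by 6 of the 31 members, or 19.4%. Those 6 were Plxnd1, Plxdc1, Sema6d, Sema3b and Sema4c, all higher, and Sema3e, which was lower. Sema3b and Sema4c lay close to the 2-fold line, and without siCo replicate 2 only 3 members were at least 2-fold higher, while without siCo replicate 1 a second member, Sema3d, was at least 2-fold lower. Without siYAP/TAZ replicate 2, Nrp1 and Plxnb1 lost their calls and 3 members were lower. FPKM ranges of the groups did not overlap for 28 of the 31 members, against 77.2% of all genes tested. These shares describe the set and are no test of it, since its members were not drawn at random.

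**Figure D1:**
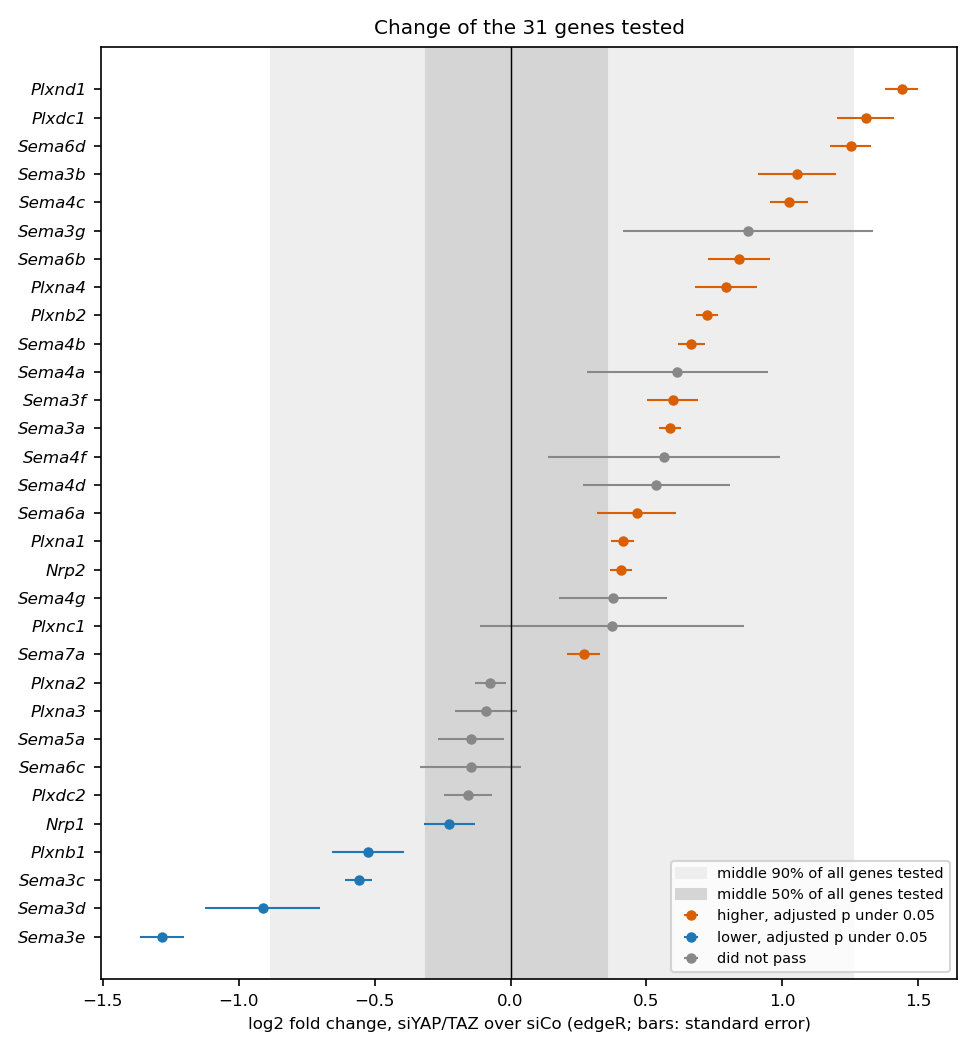
Fitted log2 fold change (siYAP/TAZ over siCo, x axis) of the 31 tested members, ordered by that change, with bars of 1 SE. Colours show called higher, called lower and not passed. Grey bands hold the middle 50% (-0.31 to 0.35) and 90% (-0.88 to 1.26) of all genes tested. Plxnd1 at 1.44 and Plxdc1 at 1.31 lie beyond the upper edge of the wider band, and Sema3e at -1.28 and Sema3d at -0.91 beyond its lower edge.

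The secreted class 3 ligands split, with 3 higher, 3 lower and Sema3g not past the threshold. Sema3e, the ligand of plexin D1, fell most. It had 7.0 and 8.4 FPKM in the siCo libraries and 3.05 and 3.09 FPKM in the siYAP/TAZ libraries. Both siYAP/TAZ libraries lay below both siCo libraries, and the change was 2.43-fold (log2 fold change -1.28, SE 0.0804, edgeR adjusted p = 1.418e-11). Sema3c, which signals through both neuropilins and is known for its part in forming the cardiac outflow tract, was the most abundant class 3 semaphorin of siCo cells at 27.7 and 30.2 FPKM. It fell to 19.5 and 18.7 FPKM, again without overlap (log2 fold change -0.56, SE 0.0496, edgeR adjusted p = 3.912e-09). Sema3d, known for shaping the pulmonary veins, was scarce, with 0.581 and 0.665 FPKM in siCo and 0.316 and 0.325 FPKM in siYAP/TAZ. Its log2 fold change was -0.91 (SE 0.211, edgeR adjusted p = 0.0009279), and on the log2(FPKM + 1) scale it shrank to -0.30.

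The 3 class 3 ligands that rose did so from very different levels. Sema3a, the classic axon repellent that binds Nrp1, had 19.5 and 18.8 FPKM in siCo and 27.98 and 27.79 FPKM in siYAP/TAZ. The gap between the groups was far wider than that within them (log2 fold change 0.59, SE 0.0422, edgeR adjusted p = 1.339e-10). Sema3f, which prefers Nrp2, had 4.04 and 3.45 FPKM in siCo and 5.29 and 5.71 FPKM in siYAP/TAZ. It rose by a similar amount to Sema3a (log2 fold change 0.60, SE 0.0944, edgeR adjusted p = 1.447e-05). Sema3b, like Sema3f a candidate tumour suppressor in human lung cancer, had 1.55 and 1.23 FPKM in siCo and 2.80 FPKM in each siYAP/TAZ library. The increase was 2.08-fold (log2 fold change 1.06, SE 0.143, edgeR adjusted p = 1.931e-06), and 0.67 on the log2(FPKM + 1) scale. Sema3g, an endothelial ligand of Nrp2, had 23 and 6 counts in siCo and 28 and 23 counts in siYAP/TAZ. Its log2 fold change of 0.87 (SE 0.460, edgeR adjusted p = 0.1145) depended on the siCo libraries, being 2.11 without siCo replicate 1, where it passed the threshold, and 0.23 without siCo replicate 2.

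Falls and rises nearly cancelled in the class as a whole, whose summed level was 61.7 FPKM ± 1.43 (SD, n = 2) in siCo and 58.9 FPKM ± 0.400 (SD, n = 2) in siYAP/TAZ. What changed was its make-up. Sema3c held 46.9% ± 1.70 (SD, n = 2) of the summed FPKM in siCo and 32.3% ± 0.741 (SD, n = 2) in siYAP/TAZ. Sema3a went the other way, from 31.03% ± 1.62 (SD, n = 2) to 47.3% ± 0.0942 (SD, n = 2), so that it led in both siYAP/TAZ libraries where Sema3c had led in both siCo libraries. Counted per read and not per length, Sema3a held the larger share in all 4 libraries, and its shares were 46.1% and 64.7%. The share of Sema3e went from 12.5% to 5.21% of the summed FPKM and that of Sema3f from 6.08% to 9.33%. These shares have no test of their own beyond the fits of the single genes.

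**Figure D2:**
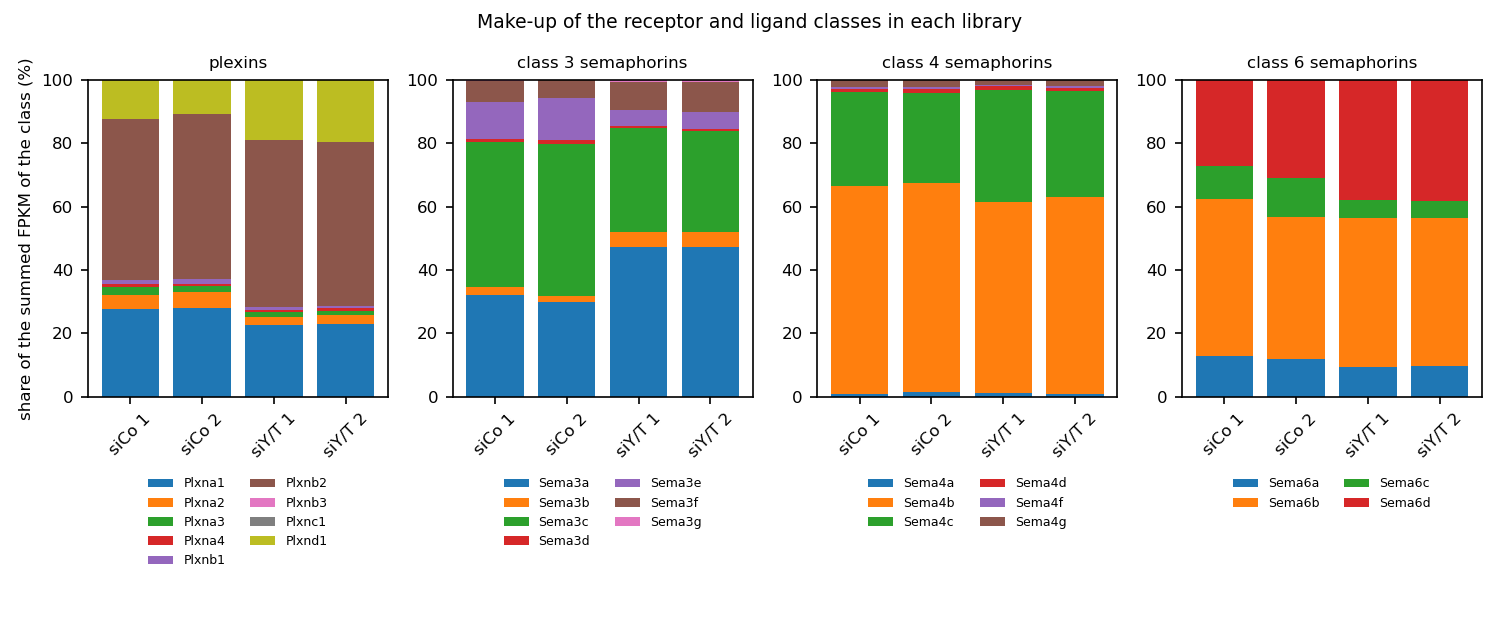
Stacked bars of the percent of summed FPKM that each gene held among the plexins and the class 3, class 4 and class 6 semaphorins, in each of the 4 libraries. Sema3a rises from 31.03% to 47.3% of class 3 and Plxnd1 from 11.5% to 19.2% of the plexins, while Plxnb2 stays near 51.3% and 52.3%.

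The called class 3 genes lie in a pair of neighbourhoods, given here in mm10 coordinates. Sema3d (12383385 to 12588948), Sema3a (13125414 to 13602565), Sema3e (14025276 to 14256689) and Sema3c (17574281 to 17730268) follow one another on the plus strand of chromosome 5. Between Sema3d and Sema3a there was no other protein-coding gene, between Sema3a and Sema3e there was 1, and between Sema3e and Sema3c there were 16. Sema3a, which rose, is thus flanked by Sema3d and Sema3e, which fell. On the minus strand of chromosome 9, Sema3b (107597674 to 107609229) and Sema3f (107681500 to 107710475) are 72270 bases apart with 3 protein-coding genes between them, and both rose.

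Among the membrane-bound ligands no gene that passed the test fell. Called were 2 of the 6 tested in class 4, 3 of the 4 in class 6, and Sema7a, but not Sema5a. Of all genes tested, 55.4% were called in either direction. Sema5a and Sema6c, which did not pass, each had a log2 fold change of -0.15. Class 4 semaphorins, which act on plexins B and D and on immune cell receptors, had 2 genes higher and 4 not past the threshold. Sema4c, a ligand of plexin B2, had 6.57 and 6.21 FPKM in siCo and 12.9 and 12.3 FPKM in siYAP/TAZ. Each siYAP/TAZ library was well above each siCo library, and the increase was 2.04-fold (log2 fold change 1.03, SE 0.0699, edgeR adjusted p = 5.569e-11). Of the exonic bases of Sema4c, 7.27% overlap the antisense gene D430040D24Rik, which had 19 and 26 counts in siCo and 43 and 41 counts in siYAP/TAZ, and its part in the Sema4c counts was not tested. Sema4b, the most abundant of the class, had 14.5 FPKM in each siCo library and 21.9 and 22.7 FPKM in siYAP/TAZ. It rose by 0.67 on the log2 scale (SE 0.0498, edgeR adjusted p = 2.55e-10). Together these genes took the summed level of class 4 from 22.04 FPKM ± 0.191 (SD, n = 2) to 36.5 FPKM ± 0.143 (SD, n = 2).

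The other class 4 genes were all under 1 FPKM. Sema4d, the ligand of plexin B1 also known as CD100, had 0.248 and 0.282 FPKM in siCo and 0.410 and 0.333 FPKM in siYAP/TAZ (log2 fold change 0.54, SE 0.271, edgeR adjusted p = 0.0997). Sema4a, Sema4f and Sema4g had means of 0.150 to 0.475 FPKM in siCo and 0.218 to 0.601 FPKM in siYAP/TAZ, with log2 fold changes of 0.38 to 0.61. None of them passed the threshold (edgeR adjusted p of 0.1165 to 0.2768). Their FPKM ranges did not overlap between the groups, as was so for 77.2% of all genes tested. The nearest siCo and siYAP/TAZ libraries had 31 and 31 counts for Sema4a, 15 and 16 for Sema4f, and 76 and 86 for Sema4g.

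Class 6 semaphorins, which bind plexins A, had 3 genes higher and Sema6c not past the threshold. Sema6d, a ligand of plexin A1 in the developing chick heart, had 2.45 and 2.27 FPKM in siCo and 5.24 and 5.67 FPKM in siYAP/TAZ. It had the largest increase among the semaphorins, at 2.38-fold (log2 fold change 1.25, SE 0.0744, edgeR adjusted p = 6.038e-12). Sema6b, a ligand of plexin A4, had 4.46 and 3.28 FPKM in siCo and 6.53 and 6.95 FPKM in siYAP/TAZ. Its siCo libraries lay further apart than its siYAP/TAZ libraries, yet the groups stayed separate (log2 fold change 0.84, SE 0.113, edgeR adjusted p = 1.706e-06).

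Sema6a, which binds plexins A2 and A4, had 1.15 and 0.878 FPKM in siCo and 1.29 and 1.42 FPKM in siYAP/TAZ. Its rise of 0.46 on the log2 scale (SE 0.144, edgeR adjusted p = 0.009435) lost its call in 5 of 11 alternative analyses. Among these were DESeq2, with an adjusted p of 0.06038, and the fits without siCo replicate 2 and without siYAP/TAZ replicate 2. Without siCo replicate 2 the log2 fold change of Sema6a was 0.29. Sema6c had 0.933 and 0.897 FPKM in siCo and 0.809 and 0.794 FPKM in siYAP/TAZ (log2 fold change -0.15, SE 0.184, edgeR adjusted p = 0.522). The summed level of class 6 went from 8.16 FPKM ± 1.17 (SD, n = 2) to 14.4 FPKM ± 0.677 (SD, n = 2).

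Sema7a, held in the membrane by a lipid anchor and known to act through integrins and plexin C1, was abundant and changed little. It had 15.3 and 15.8 FPKM in siCo and 17.8 and 18.5 FPKM in siYAP/TAZ, a rise of 0.27 on the log2 scale (SE 0.0615, edgeR adjusted p = 0.0008209). Class 5 semaphorins, which carry thrombospondin repeats, were scarce. Sema5a had 0.968 and 0.801 FPKM in siCo and 0.842 and 0.707 FPKM in siYAP/TAZ, with overlapping groups and a log2 fold change of -0.15 (SE 0.120, edgeR adjusted p = 0.3222). Sema5b had 4 counts in 1 siCo library and none in the other 3 libraries, too few to test. With 3 counts over the group taken as the floor for a count of 0, the siCo level was 1.31-fold that floor. This ratio takes the 4 siCo counts as exact, so no fall was shown.

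**Figure D3:**
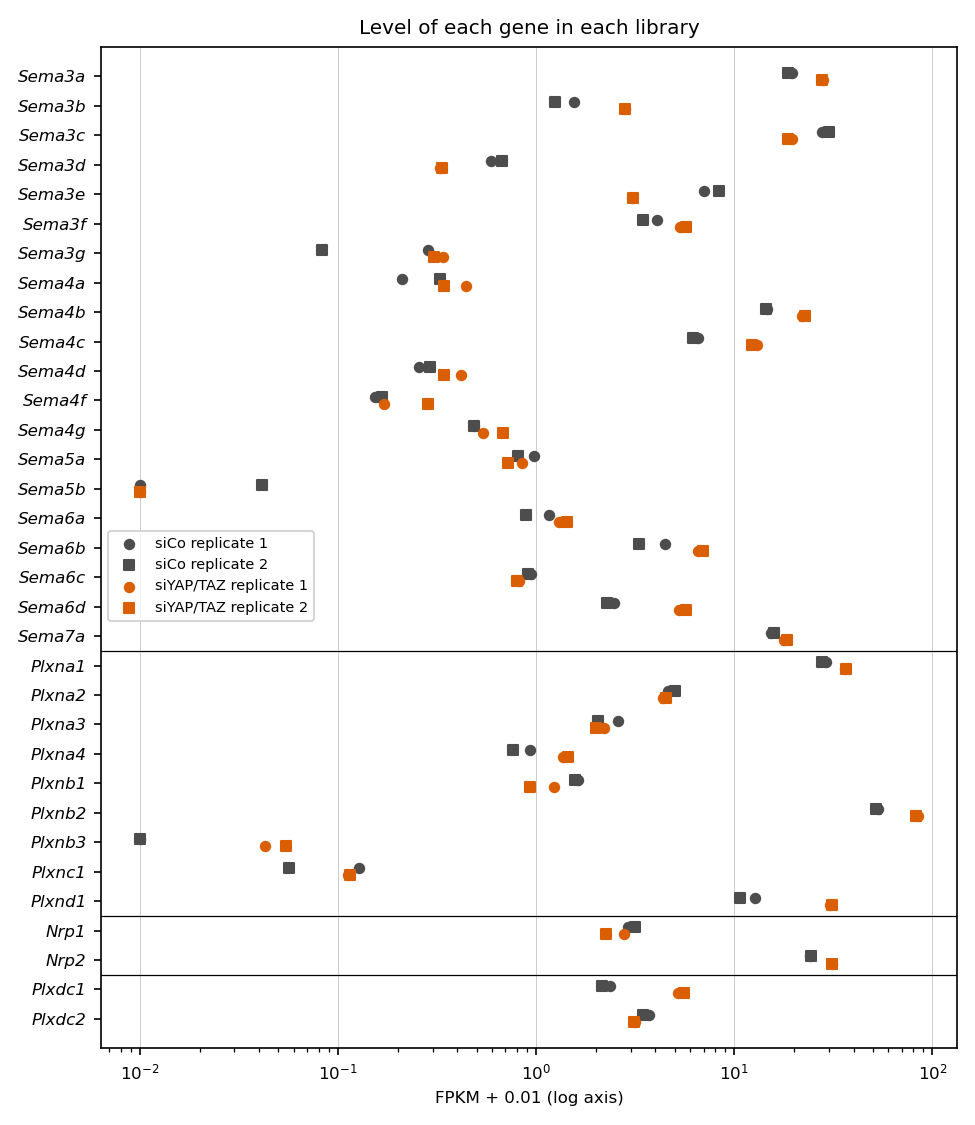
Level of each of the 33 members in each library as FPKM + 0.01 on a log axis, grouped by role, with siCo and siYAP/TAZ libraries in separate colours. Plxnb2 is highest in all 4 libraries (51.6 to 84.6 FPKM), 22 members reach a mean of 1 FPKM in at least 1 group, and Plxnb3 and Sema5b lie at the lower edge.

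On the receptor side the summed level of the plexins was 102 FPKM ± 3.67 (SD, n = 2) in siCo and 160.2 FPKM ± 0.677 (SD, n = 2) in siYAP/TAZ, a ratio of 1.57. Plxnb2, Plxna1 and Plxnd1 were the most abundant in both groups and rose, while Plxna2, Plxna3 and Plxnb1 had lower means in siYAP/TAZ. Of 8 tested plexins, 4 were higher, 1 lower and 3 did not pass (62.5% called, against 55.4% of all genes tested). Plxnd1, the Sema3e receptor that is best known from endothelium, had the largest change of the 31 tested members. It had 12.8 and 10.6 FPKM in siCo and 30.5 and 31.1 FPKM in siYAP/TAZ. Both siYAP/TAZ libraries lay far above both siCo libraries, and the change was 2.71-fold (log2 fold change 1.44, SE 0.0600, edgeR adjusted p = 2.005e-14). Over the 11 alternative analyses its log2 fold change was 1.32 to 1.58. Of the endothelial markers, Tek rose by 1.46 and Tie1 by 0.96 on the log2 scale, Cdh5 rose by 0.12, and Emcn fell by 0.41. The part of endothelial-type expression in the Plxnd1 change was not tested.

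Plxnb2, a receptor for Sema4c that is expressed in most tissues, was the most abundant member in both groups. It had 53.0 and 51.6 FPKM in siCo and 84.6 and 82.8 FPKM in siYAP/TAZ. In absolute level this was the largest gain of any member, and it was a rise of 0.72 on the log2 scale (SE 0.0408, edgeR adjusted p = 2.495e-12). Plxnb1, the Sema4d receptor, moved the opposite way from a low level, with 1.61 and 1.57 FPKM in siCo and 1.22 and 0.916 FPKM in siYAP/TAZ. The fall (log2 fold change -0.52, SE 0.132, edgeR adjusted p = 0.00204) rested on siYAP/TAZ replicate 2, without which it was -0.33 with an adjusted p of 0.07141. Plxnb3, a plexin of the brain that binds Sema5a, had no counts in siCo and 4 and 5 counts in siYAP/TAZ. Against a floor of 3 counts over the group, the siYAP/TAZ level was 3.04-fold that floor. This ratio takes the siYAP/TAZ counts as exact and has no test.

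Plexins A are the usual partners of neuropilins and of class 6 semaphorins. Plxna1 had 28.9 and 27.7 FPKM in siCo and 36.2 and 36.8 FPKM in siYAP/TAZ (log2 fold change 0.41, SE 0.0428, edgeR adjusted p = 4.152e-08). Its exons overlap the antisense gene Gm26811 over 10.7% of their bases, and Gm26811 had 29 and 25 counts in siCo and 49 and 41 counts in siYAP/TAZ. Plxna4, a co-receptor for Sema3a in neurons, had 0.916 and 0.751 FPKM in siCo and 1.36 and 1.44 FPKM in siYAP/TAZ. It rose by 0.79 on the log2 scale (SE 0.115, edgeR adjusted p = 4.751e-06), a value that was 0.39 on the log2(FPKM + 1) scale.

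Plxna2 and Plxna3 did not pass the test. Plxna2 had 4.61 and 5.02 FPKM in siCo and 4.35 and 4.51 FPKM in siYAP/TAZ (log2 fold change -0.08, SE 0.0571, edgeR adjusted p = 0.2791). Plxna3 had 2.57 and 2.03 FPKM in siCo and 2.19 and 2.00 FPKM in siYAP/TAZ, with overlapping groups (log2 fold change -0.09, SE 0.115, edgeR adjusted p = 0.5312). Plxnc1, the plexin that binds Sema7a, was close to absent at 0.117 and 0.0465 FPKM in siCo and 0.102 and 0.104 FPKM in siYAP/TAZ. Its log2 fold change of 0.37 (SE 0.484, edgeR adjusted p = 0.5374) had no stable sign.

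The balance among plexins moved towards plexin D1. Plxnd1 held 11.5% ± 1.06 (SD, n = 2) of the summed plexin FPKM in siCo and 19.2% ± 0.312 (SD, n = 2) in siYAP/TAZ. Plxna1 went from 27.8% ± 0.133 (SD, n = 2) to 22.8% ± 0.353 (SD, n = 2), although its own level rose. Plxnb2 kept about the same share, 51.3% ± 0.875 (SD, n = 2) and 52.3% ± 0.579 (SD, n = 2).

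Sema3e and Plxnd1 are a ligand and its direct receptor with changes in opposite directions, and the promoter windows of both are shown so that their letters can be compared. Each runs from 250 bases before to 50 bases after a RefSeq transcript start, on the strand of the gene, in the GRCm38.p6 (mm10) assembly. Capitals mark GGAATG or its reverse complement CATTCC, the core of the TEAD motif, where a window holds it.
Sema3e (chr5:14025026-14025325, plus strand): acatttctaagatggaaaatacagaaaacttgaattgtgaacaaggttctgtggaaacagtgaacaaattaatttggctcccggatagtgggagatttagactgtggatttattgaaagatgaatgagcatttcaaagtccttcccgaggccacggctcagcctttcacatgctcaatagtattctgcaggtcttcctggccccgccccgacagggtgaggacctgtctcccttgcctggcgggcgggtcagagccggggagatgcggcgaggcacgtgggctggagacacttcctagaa
Plxnd1 (chr6:115994956-115995255, minus strand): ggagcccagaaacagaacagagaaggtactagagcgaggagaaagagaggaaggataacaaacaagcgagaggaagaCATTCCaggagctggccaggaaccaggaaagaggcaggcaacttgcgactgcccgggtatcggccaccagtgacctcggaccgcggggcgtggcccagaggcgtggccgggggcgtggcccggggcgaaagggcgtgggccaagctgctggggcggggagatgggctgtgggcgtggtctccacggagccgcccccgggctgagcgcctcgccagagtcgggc
Plxnd1 has CATTCC beginning 173 bases before the start, and the Sema3e window holds neither spelling.

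Sema4c and Sema6d are shown as membrane-bound ligands that rose at least 2-fold, and Plxnb1 as the plexin that fell. Here capitals mark the TEAD core or the AP-1 letters TGACTCA and TGAGTCA, which are reverse complements of each other. Sema4c and Sema6d each have a further window, and the first is printed.
Sema4c (chr1:36558332-36558631, minus strand): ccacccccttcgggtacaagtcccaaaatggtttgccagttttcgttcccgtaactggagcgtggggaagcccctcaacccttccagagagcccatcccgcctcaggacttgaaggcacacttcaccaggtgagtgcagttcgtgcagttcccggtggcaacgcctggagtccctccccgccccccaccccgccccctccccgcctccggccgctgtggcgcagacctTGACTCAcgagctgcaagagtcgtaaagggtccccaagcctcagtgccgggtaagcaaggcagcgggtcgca
Sema6d (chr2:124089719-124090018, plus strand): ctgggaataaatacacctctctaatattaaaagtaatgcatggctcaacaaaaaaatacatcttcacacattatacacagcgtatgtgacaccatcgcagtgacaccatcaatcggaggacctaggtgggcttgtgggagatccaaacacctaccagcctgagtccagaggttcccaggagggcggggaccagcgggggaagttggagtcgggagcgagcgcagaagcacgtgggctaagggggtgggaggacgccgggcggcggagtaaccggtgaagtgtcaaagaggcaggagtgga
Plxnb1 (chr9:109095186-109095485, plus strand): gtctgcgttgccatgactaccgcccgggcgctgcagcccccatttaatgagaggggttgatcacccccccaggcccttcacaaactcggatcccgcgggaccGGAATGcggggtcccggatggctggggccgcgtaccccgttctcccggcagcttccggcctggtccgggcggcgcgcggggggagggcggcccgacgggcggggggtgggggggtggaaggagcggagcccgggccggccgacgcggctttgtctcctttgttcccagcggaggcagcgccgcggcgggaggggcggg
Sema4c has TGACTCA beginning 22 bases before the start and Plxnb1 has GGAATG beginning 148 bases before it, while the printed Sema6d window has no match. The other matches among members were CATTCC in a window of Sema4a and TGAGTCA in a window of Sema6b.

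RefSeq windows were matched by symbol for 26 of the 33 members, 37 windows in all. The TEAD core was present on either strand in 3 of the 37 windows (8.11%), against 14.7% of all 32851 windows of the same length. The AP-1 letters were present in 2 of them (5.41%), against 5.2% of all windows. Of the 3 genes with the TEAD core, Plxnd1 rose, Plxnb1 fell and Sema4a did not pass the test. A match is a description of these letters, and no match says only that they are not in this window.

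The co-receptors differed from each other. Nrp2, which binds Sema3f, Sema3g and VEGF-C, was the dominant neuropilin, with 24.2 and 24.5 FPKM in siCo and 31.3 and 31.2 FPKM in siYAP/TAZ. It rose by 0.41 on the log2 scale (SE 0.0413, edgeR adjusted p = 3.209e-08) and held 88.9% ± 0.486 (SD, n = 2) of the summed neuropilin FPKM in siCo and 92.6% ± 0.967 (SD, n = 2) in siYAP/TAZ. Nrp1, the co-receptor of Sema3a and of VEGF-A, had 2.90 and 3.15 FPKM in siCo and 2.75 and 2.25 FPKM in siYAP/TAZ.

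The groups of Nrp1 did not overlap, but they came close, and its log2 fold change was -0.23 (SE 0.0942, edgeR adjusted p = 0.04824). The call was lost in 6 of 11 alternative analyses, with an adjusted p of 0.1846 in DESeq2, 0.05793 with a minimum count of 30, 0.1971 without siCo replicate 2 and 0.5478 without siYAP/TAZ replicate 2. The log2 fold change ranged from -0.38 to -0.08 over them.

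Plxdc1, also known as tumour endothelial marker 7, and Plxdc2 have been described as receptors of pigment epithelium-derived factor. Plxdc1 had 2.34 and 2.13 FPKM in siCo and 5.16 and 5.58 FPKM in siYAP/TAZ. This was the second largest change of the tested members, 2.48-fold (log2 fold change 1.31, SE 0.105, edgeR adjusted p = 7.374e-10). Plxdc2 had 3.71 and 3.45 FPKM in siCo and 3.13 and 3.10 FPKM in siYAP/TAZ (log2 fold change -0.16, SE 0.0886, edgeR adjusted p = 0.1459). Plxdc2 was the higher of them in both siCo libraries and Plxdc1 in both siYAP/TAZ libraries, with the share of Plxdc1 in their summed FPKM going from 38.4% ± 0.318 (SD, n = 2) to 63.3% ± 1.47 (SD, n = 2).

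Whether 2 members changed by different amounts was asked for 5 pairs, from the log2 ratio of their counts within each library. This ratio does not depend on the scaling between libraries. With 2 libraries a group, an exact permutation test cannot give a two-sided p below 0.333, so the 95% interval of each difference is given beside it. The Sema3e to Plxnd1 ratio was -0.52 and 0.0062 in siCo and -2.98 in each siYAP/TAZ library. The difference of -2.72 (95% interval -3.86 to -1.59; exact permutation p = 0.333, adjusted over the 5 pairs 0.417) corresponds to 6.60-fold less ligand RNA per receptor RNA. That interval included 0 without either siYAP/TAZ library, where the difference stayed at -2.73 and -2.72. The Plxdc1 to Plxdc2 ratio was -1.19 and -1.22 in siCo and 0.20 and 0.33 in siYAP/TAZ, a difference of 1.46 (95% interval 1.18 to 1.75; exact permutation p = 0.333, adjusted 0.417).

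The Sema4d to Plxnb1 ratio was -3.03 and -2.80 in siCo and -1.90 and -1.78 in siYAP/TAZ. Its difference was 1.07 (95% interval 0.52 to 1.63; exact permutation p = 0.333, adjusted 0.417), although Sema4d alone did not pass the test, and with any 1 library left out the interval included 0. The Nrp1 to Nrp2 ratio was -3.33 and -3.23 in siCo and -3.78 and -4.07 in siYAP/TAZ, and the interval of the difference, -0.64 (95% interval -1.30 to 0.02; exact permutation p = 0.333, adjusted 0.417), just reached 0. The Sema7a to Plxnc1 ratio could not be resolved, at -0.26 (95% interval -3.23 to 2.71; exact permutation p = 1.0).

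**Figure D4:**
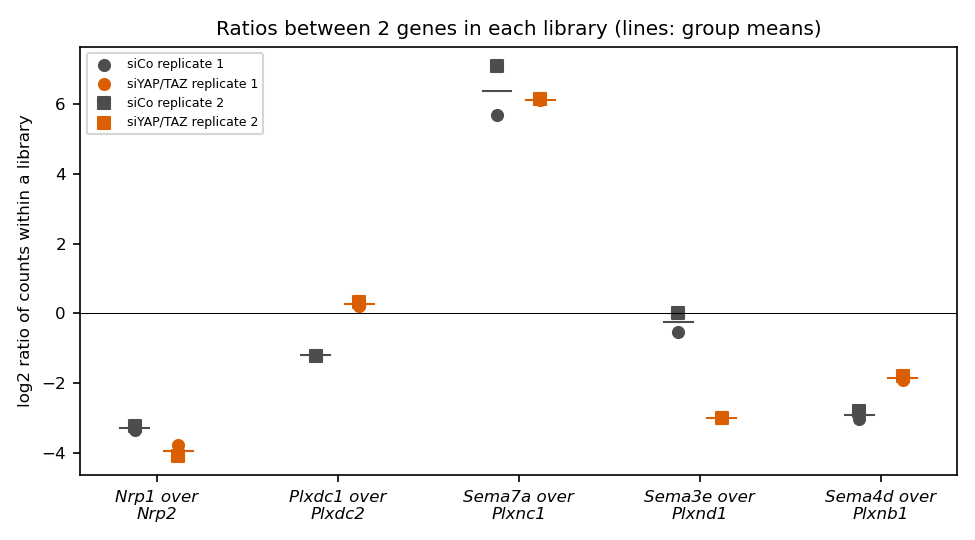
Log2 ratio of the counts of 5 pairs of members within each library (y axis), with siCo and siYAP/TAZ libraries as separate points and the mean of each group as a line. The Sema3e to Plxnd1 ratio drops from a mean of -0.26 to -2.98, the Plxdc1 to Plxdc2 ratio climbs from -1.20 to 0.26, and the siCo points of Sema7a to Plxnc1 lie far apart.

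In the order of levels by FPKM, Plxnb2 was first in both groups. In siCo it was followed by Sema3c (29.0 FPKM ± 1.72, SD, n = 2), Plxna1 (28.3 FPKM ± 0.882, SD, n = 2), Nrp2 and Sema3a, and the ranges of Sema3c and Plxna1 overlapped. In siYAP/TAZ the order was Plxnb2, Plxna1, Nrp2, Plxnd1 and Sema3a, and neighbouring ranges did not overlap, although those of Nrp2 (31.2 to 31.3 FPKM) and Plxnd1 (30.5 to 31.1 FPKM) lay close. Plxnd1 went from rank 8 to rank 4, Sema3c from rank 2 to rank 7 and Sema3e from rank 9 to rank 16. Of the 11 members under 1 FPKM in both groups, 9 were tested, and of these Sema3d was called. Of the 20 called members, 17 kept their call and direction in all 11 alternatives, the exceptions being Nrp1, Plxnb1 and Sema6a.

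The wider pathway was read from lists of co-receptors, signalling proteins and other guidance families. Of 18 co-receptors and other receptors of semaphorins, 13 were tested, with 7 higher and 5 lower (92.3% called, against 55.4% of all genes tested) and a median log2 fold change of 0.49. Met, the HGF receptor that pairs with plexins B, fell by 1.08 on the log2 scale (7.41 to 3.40 FPKM, SE 0.0746, edgeR adjusted p = 6.993e-11). The adhesion molecule Nrcam, which joins Nrp2 in the Sema3f receptor complex of neurons, fell by 1.21 (1.24 to 0.518 FPKM, SE 0.136, edgeR adjusted p = 1.411e-07). L1cam, its counterpart in the Sema3a complex, rose by 1.22 (0.362 to 0.818 FPKM, SE 0.206, edgeR adjusted p = 3.238e-05), and the VEGF receptor Flt1 rose by 1.00 (2.76 to 5.37 FPKM, SE 0.0624, edgeR adjusted p = 1.217e-11). Of 5 VEGF-family ligands, which neuropilins also bind, 1 was higher and 2 were lower (60.0% called), and Pgf fell by 1.08 (7.75 to 3.55 FPKM, SE 0.112, edgeR adjusted p = 4.162e-08).

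Inside the cell, 34 of 36 plexin signalling genes were tested, with 14 higher and 12 lower (76.5% called, against 55.4% of all genes tested) and a median log2 fold change of 0.02. A change of at least 2-fold was reached by 2 of them (5.88%, against 10.3% of all genes tested), the small GTPases Rnd1 and Rras2. Rnd1, which binds the plexin's intracellular domain and opens its GAP activity, had 31.9 FPKM ± 1.74 (SD, n = 2) in siCo and 7.76 FPKM ± 0.781 (SD, n = 2) in siYAP/TAZ (log2 fold change -1.999, SE 0.0729, edgeR adjusted p = 2.539e-15). Rras2, a member of the R-Ras family on which plexins act, had 71.2 FPKM ± 9.35 (SD, n = 2) and 24.8 FPKM ± 0.0841 (SD, n = 2) (log2 fold change -1.48, SE 0.0650, edgeR adjusted p = 4.995e-14).

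The other guidance families are set beside the same share of 55.4% called among all genes tested. Of 9 tested genes of Slit and Robo signalling, 2 were higher and 2 lower (44.4% called), with a median log2 fold change of 0.12. Of 9 tested netrins and netrin receptors, 6 were higher and 2 lower (88.9% called), with a median of 0.65, and the laminin-like Ntn4 fell by 1.85 on the log2 scale (20.01 to 5.38 FPKM, SE 0.0702, edgeR adjusted p = 4.614e-15). Unc5d rose by 1.55 (0.548 to 1.55 FPKM) and Ntng2 by 1.18 (2.36 to 5.18 FPKM), both past the edgeR threshold. Of 19 tested ephrins and Eph receptors, 6 were higher and 5 lower (57.9% called), with a median of 0.10. Epha2, an Eph receptor common in epithelia and tumours, fell by 1.37 (34.4 to 12.9 FPKM), Epha8 fell by 2.66 from 0.508 FPKM, and Ephb6 rose by 1.03 from 0.929 FPKM. Whether the semaphorin system differs from these families was not tested.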

How the data were processed

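The 4 bulk libraries of mouse SMCs (2 siCo, 2 siYAP/TAZ) were used. Not analysed here were 2 rat single-nucleus samples. Trimming with Trimmomatic and alignment to mm10 with HISAT2 are named in the labels, without versions. The study's methods describe counting of uniquely mapped reads with featureCounts for tissue RNA-seq. Strand setting and Ensembl release: not given in the sources used here, so reads of a gene and of an overlapping antisense gene cannot be told apart.

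The authors deposited raw counts and FPKM of each gene. Dividing a count by the exonic length and by the library's total matched the deposited FPKM of all 55573 genes in either siCo library within 0.0051 FPKM, and FPKM of all 4 libraries was computed this way. For siYAP/TAZ, 2 deposited FPKM columns matched no single sample and were left out. The count columns name the group with numbers that do not show which sample each is, so replicate numbers follow their order in the table. Rows that name no gene (57) held 0 counts and were dropped. Replicates differed by more than sampling noise (chi-square per gene 3.34 for siCo and 2.00 for siYAP/TAZ).

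Counts of all genes were fitted in R 4.3.3 with edgeR 4.0.16: TMM scaling, a filterByExpr minimum count of 10, the quasi-likelihood test and Benjamini-Hochberg adjustment over the 15479 genes tested, with a threshold of 0.05. Members were read from that fit. The SE is the absolute log2 fold change over the root of F, and the spread had 18.6 prior and 2 residual degrees of freedom. Members and gene lists were chosen with earlier results of these data known. Every member is named, with the values of each library where its mean reached 1 FPKM or it changed at least 2-fold, and each list is represented by up to 4 genes called and changed at least 2-fold. Alternatives were DESeq2 1.42.0, scaling by library totals, no filter, a minimum count of 30, limma 3.58.1 on log2(FPKM + 1) and log2(FPKM + 0.1), a fit with a replicate block, and fits without each library in turn. Positions and overlaps come from GENCODE M21, and promoter windows from RefSeq. Python 3.11.15 with pandas 2.3.3 and scipy 1.17.1 made the tables, and matplotlib 3.10.9 the figures.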

Additional observations from a re-analysis of the deposited data

How the results depend on the processing

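Direction and call were kept in all 11 alternatives by 17 of the 20 called members (14 higher, 3 lower), and 3 to 5 members were called lower with a library left out, 3 of them without siYAP/TAZ replicate 2. Members at least 2-fold higher numbered 1 in limma on log2(FPKM + 1) and 3 on log2(FPKM + 0.1), and 3 to 7 with a library left out (3 without siCo replicate 2). Those at least 2-fold lower numbered 1 to 2 (2 without siCo replicate 1). Over all genes the same limma fits called 348 higher and 176 lower by at least 2-fold, or 853 and 446, against 1105 and 488. Scaling by library totals gave 3819 higher and 4809 lower of all genes, against 4279 and 4290. Signs that turned were those of Plxna3 (-0.25 to 0.088 with a library left out) and Plxnc1 (-0.13 to 1.18), neither of them called.

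Among the pair differences, Nrp1 with Nrp2 was -0.55 on log2(FPKM + 1), with an interval that excluded 0, and Sema7a with Plxnc1 was 0.18 there and -0.95 to 0.43 with a library left out, the cause of which was not tested. Without 1 library, Sema3e with Plxnd1 was -2.99 to -2.46 and Sema4d with Plxnb1 was 0.96 to 1.19. For Sema4d with Plxnb1 the interval included 0 in each of these fits. For Sema3e with Plxnd1 the interval included 0 when a siYAP/TAZ library was left out. Libraries of the same number shared only that number (correlation of their deviations 0.04 over 12317 genes). With a replicate block, 4440 genes were higher and 4428 lower, the Sema3e with Plxnd1 difference was -2.72 with an interval of -6.11 to 0.66, 1 more VEGF-family ligand was called higher, and no member's call changed. With 2 libraries a group, members with few counts limit what these data can resolve.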
